A study of Mus musculus with 7 samples.

Results

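Chromatin that was open in cells of both heart field sorts, and not called open in the cells left over by those sorts, came to 1286 regions of 203618 on chromosomes 1 to 19. The regions were chosen by the deposited peak lists themselves. Peaks with a -log10 q of at least 2 (q at most 0.01) from all 7 ATAC-seq libraries were merged where they shared at least 1 bp, and a merged region was kept when at least 3 of the 4 sort-positive libraries had such a peak in it and none of the 3 sort-negative libraries did. The rule kept 0.632% of all merged regions. The q values and the presence of peaks therefore describe how the regions were selected and are given without a test.

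All cells came from the second heart field (SHF) region of mouse embryos at E9.5. GFP+ cells (replicates 3 and 4) and GFP- cells (replicates 1 and 2) were sorted from the Hoxb1-GFP line, whose GFP marks *Hoxb1* expression in the posterior SHF. Tomato+ cells (replicates 6 and 8) and Tomato- cells (replicate 7) came from the *Mef2c-Cre;RosatdT* line, in which a *Mef2c* anterior heart field enhancer drives Cre and all descendants of a recombined cell keep the Tomato label. Embryos were pooled for each sample, per the methods, and whether the replicates came from separate pools is not given in the sources used here. The methods also write the GFP allele as *Hoxb1*-, and its zygosity in the sorted embryos is not given either. Population and mouse line cannot be told apart, and sort-negative cells are all other cells of the dissected region rather than 1 cell type. Each library is called by the number of its adapter, which no other library has.

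The SHF is the pool of mesodermal progenitors behind the heart tube that adds myocardium to both of its poles. Its anterior part contributes to the outflow tract and right ventricle, and its posterior part, where *Hoxb1* and retinoic acid act, contributes to the atria and the base of the pulmonary trunk. Progenitors of both parts use factors of the GATA, T-box, ISL, NKX2 and TALE (MEIS and PBX) families, which bind short sequence motifs in enhancers, and TEAD factors, the DNA-binding partners of the Hippo effectors YAP and TAZ.

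Several properties of the libraries bear on the regions. Between 64306 and 77746 peaks per library had a q of at most 0.01, and the number of tags behind each list, recovered from the background rate of the peak caller, was between 52340120 and 93074895, with the fewest in Tomato+ replicate 6 and the most in Tomato- replicate 7. The Tomato+ libraries stood apart from each other. Of the regions with a peak in exactly 2 libraries, 817 were shared by Tomato+ replicates 6 and 8, whereas 1183 and 1194 were shared by Tomato+ replicate 6 with GFP+ replicates 3 and 4, and 1385 and 1404 by Tomato+ replicates 6 and 8 with Tomato- replicate 7. In the header that the peak caller wrote for Tomato+ replicate 6, the run is named with the letters YFP, although its label gives the Tomato line. The label was followed. Because the Tomato+ libraries stood apart, results are given with and without Tomato+ replicate 8, a split chosen after the data had been seen. The block without it keeps Tomato+ replicate 6, the library with the YFP header. Promoters of 14 heart field markers did not separate the sorts, since between 8 and 12 of them had a peak in each sort-positive library and between 8 and 10 in each sort-negative library. Of 4 myocardial promoters, *Nppa* had a peak in GFP+ replicates 3 and 4 and Tomato+ replicate 6, *Actc1* in those and in Tomato+ replicate 8, and *Tnnt2* in Tomato+ replicate 6 and Tomato- replicate 7. No library had a peak at the promoter of *Myl7*. The neural promoters of *Sox2* and *Neurog1* had a peak in all libraries except Tomato+ replicate 6. Of 5 endothelial and blood promoters, between 1 and 5 had a peak in each library, with *Kdr* in all 7, *Tal1* in GFP+ replicate 4, Tomato+ replicate 6 and all 3 sort-negative libraries, *Hba-x* in GFP- replicate 1 and Tomato- replicate 7, and *Cdh5* and *Hbb-bh1* in Tomato- replicate 7 alone.

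The following windows reach 80 bp to either side of the peak summit in 8 of the regions, on the plus strand of GRCm38. They are shown because they lie near genes of the heart field, the heart muscle and the arterial wall and carry matches to the 4 motifs on which the sequence results turn. Capitals mark GATA matches (AGATAA or TGATAA), MEIS matches (TGACAG), TEAD matches (GGAATG) and HOX-PBX matches (TGATNNAT) on either strand, and TGATAA and TGATNNAT can share letters.
Isl1, 133.7 kb upstream, chr13:116443297-116443457: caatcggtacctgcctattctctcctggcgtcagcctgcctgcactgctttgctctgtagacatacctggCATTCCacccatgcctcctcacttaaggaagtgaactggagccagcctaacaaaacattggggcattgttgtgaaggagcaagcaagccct
Tbx5, 138.6 kb downstream, chr5:119973170-119973330: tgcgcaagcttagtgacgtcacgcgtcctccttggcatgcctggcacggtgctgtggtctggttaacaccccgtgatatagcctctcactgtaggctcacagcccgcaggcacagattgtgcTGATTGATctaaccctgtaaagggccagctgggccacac
Hand1, 12008 bp downstream, chr11:57820059-57820219: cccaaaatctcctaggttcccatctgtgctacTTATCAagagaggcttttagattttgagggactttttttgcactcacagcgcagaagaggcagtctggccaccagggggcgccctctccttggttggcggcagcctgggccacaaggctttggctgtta
Tead1, 23.1 kb upstream, chr7:112656201-112656361: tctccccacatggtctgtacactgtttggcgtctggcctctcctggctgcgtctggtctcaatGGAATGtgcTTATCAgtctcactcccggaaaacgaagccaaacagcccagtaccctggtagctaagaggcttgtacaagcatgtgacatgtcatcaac
Tcf21, 6.6 kb downstream, chr10:22813422-22813582: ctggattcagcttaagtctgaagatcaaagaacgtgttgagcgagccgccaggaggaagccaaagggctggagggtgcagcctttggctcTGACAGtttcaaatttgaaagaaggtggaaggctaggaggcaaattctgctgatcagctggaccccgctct
Tnni1, intron 2, chr1:135800602-135800762: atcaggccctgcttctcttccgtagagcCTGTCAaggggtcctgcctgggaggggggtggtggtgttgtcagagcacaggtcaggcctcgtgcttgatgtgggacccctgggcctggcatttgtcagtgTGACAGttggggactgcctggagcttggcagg
Nppa, 0.4 kb upstream, chr4:148000244-148000404: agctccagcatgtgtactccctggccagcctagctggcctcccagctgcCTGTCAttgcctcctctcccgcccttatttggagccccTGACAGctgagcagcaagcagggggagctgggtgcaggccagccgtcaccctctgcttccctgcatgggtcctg
Eln, 32.1 kb upstream, chr5:134779323-134779483: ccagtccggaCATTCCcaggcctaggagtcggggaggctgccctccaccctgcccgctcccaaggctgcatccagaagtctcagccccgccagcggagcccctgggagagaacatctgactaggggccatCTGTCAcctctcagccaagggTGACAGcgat

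In the positive libraries the regions held moderate peaks. Of the 1286 regions, 181 had a peak past the q limit in all 4 positive libraries and 1105 in exactly 3. GFP+ replicates 3 and 4 contributed a peak to 1094 and 1105 regions, Tomato+ replicate 6 to 1069 and Tomato+ replicate 8 to 771. The fold enrichment, the authors' ratio of the pileup of tags at the summit to the local background of the same library, had a median at these peaks of 3.61 in GFP+ replicate 3, 3.50 in GFP+ replicate 4, 3.94 in Tomato+ replicate 6 and 3.53 in Tomato+ replicate 8. The highest value of any region was 10.4, in Tomato+ replicate 6.

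The absence of a peak from the sort-negative libraries held at the q limit and less often below it. At 1011 of the 1286 regions at least 1 sort-negative library had a deposited peak of lower rank, since the lists reach down to a p of 0.01. No sort-negative library had any deposited peak at 275 regions (21.4%, 95% Wilson interval 19.2-23.7), and all 3 had one at 211 (16.4%, 14.5-18.5). The median fold enrichment of these weaker peaks was 2.64 in GFP- replicate 1, 2.71 in GFP- replicate 2 and 2.51 in Tomato- replicate 7. Absent therefore means that a sort-negative peak missed the q limit, and at most of the regions a weaker one was deposited. All intervals given for shares cover counting error only.

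The largest block of regions left out Tomato+ replicate 8. It held the 515 regions with a peak in both GFP+ libraries and Tomato+ replicate 6. In Tomato+ replicate 8 itself a weaker deposited peak was found at 215 of these 515 (41.7%, 37.6-46.1), with a median fold enrichment of 2.65, and the sort-negative libraries had one at 37.5% to 49.1% of them. The rule set this library below the limit there. Where another positive library was the missing one, it had a weaker deposited peak at 123 of 192 regions (GFP+ replicate 3, 64.1%), 99 of 181 (GFP+ replicate 4, 54.7%) and 108 of 217 (Tomato+ replicate 6, 49.8%). At the same regions the sort-negative libraries had one at 42.7% to 54.2%, 39.2% to 55.2% and 47.5% to 49.3%. The missing library thus lay within their range for GFP+ replicate 4 and Tomato+ replicate 8. It lay above their range for GFP+ replicate 3 (interval 57.1-70.5). For Tomato+ replicate 6 it lay just above, with an interval (43.2-56.4) that covered the range.

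**Figure D1:**
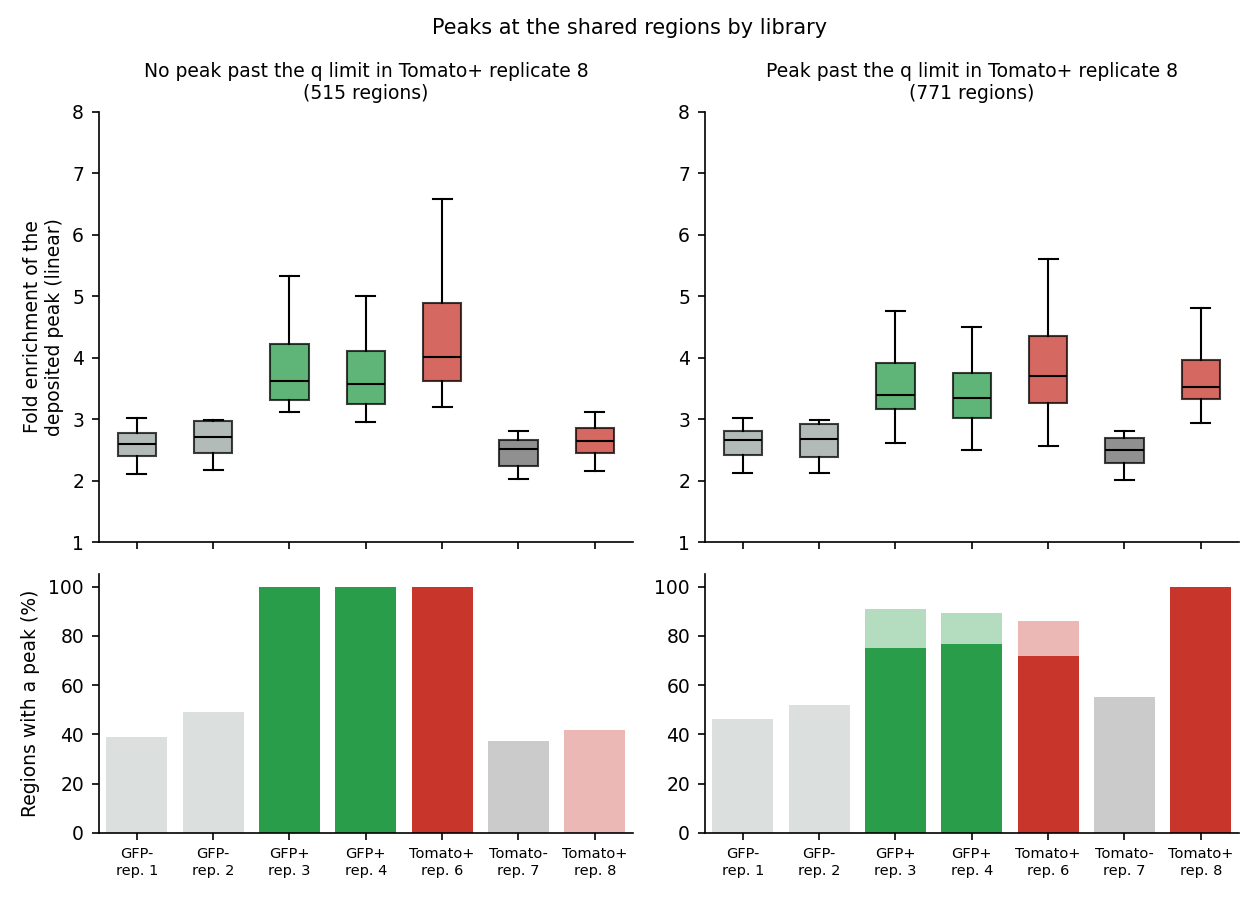
Peaks at the 1286 regions in each library, for the 515 regions without (left) and the 771 with (right) a peak past the q limit in Tomato+ replicate 8. Upper panels show the fold enrichment of deposited peaks (box, quartiles; line, median; whiskers, 5th to 95th percentile), and lower panels the percentage of regions with a peak past the q limit (solid) or only below it (pale). On the left the peaks of Tomato+ replicate 8 have a median of 2.65, and the selection placed them below the limit as it did those of the sort-negative libraries.

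Combinations of libraries give a scale for these numbers. There are 35 ways to choose 3 of the 7 libraries, and regions with a peak in exactly those 3 were counted for each. GFP+ replicates 3 and 4 with Tomato+ replicate 6 shared the most, 515, and the other 34 combinations held between 131 and 428 regions with a median of 248.5. The other 3 combinations of positive libraries held 217, 192 and 181. The 3 sort-negative libraries alone shared 322. The average over the 4 combinations of positive libraries was 276 regions, against 251 for 2 positive with 1 sort-negative library and 295 for 1 with 2. With 4 libraries, the 4 positive ones shared 181 regions, rank 18 of 35, and the most, 380, were shared by all sort-negative libraries with Tomato+ replicate 8. The count thus stood above those of other combinations for 1 set of 3 positive libraries, and the other sets of 3 or 4 positive libraries lay within their range.

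The lead of GFP+ replicates 3 and 4 with Tomato+ replicate 6 was also found in lists of equal length. With the 30000 peaks of smallest p from each library it held 222 regions against at most 192 for any other combination of 3, and at a -log10 q of at least 1.3 it held 858 against at most 650. At a -log10 q of at least 4 it was second, with 211 regions against 254 for GFP- replicate 1, Tomato- replicate 7 and Tomato+ replicate 8. These counts were added after the data had been seen.

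**Figure D2:**
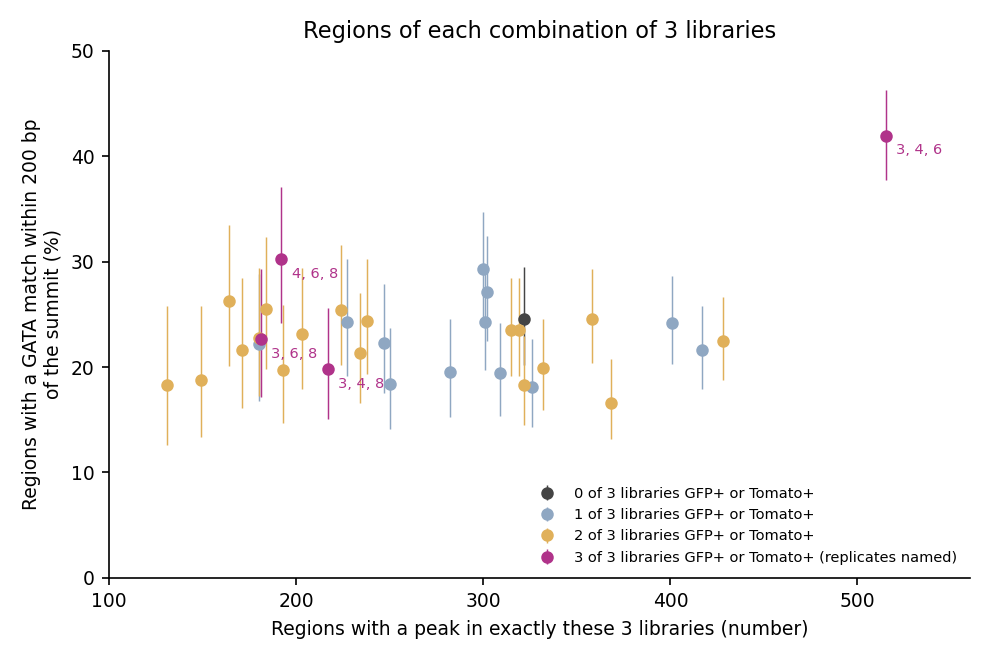
Each point is 1 of the 35 combinations of 3 libraries, with the number of regions whose peaks came from exactly those libraries (x axis) and the percentage with a GATA match within 200 bp of the summit (y axis, bars show 95% Wilson intervals), coloured by the number of sort-positive libraries. The combination of replicates 3, 4 and 6 lies apart at 515 regions and 41.9%, and the other combinations of positive libraries lie among the rest.

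The limit cut through a continuum. In 708 of the 1286 regions (55.1%) the third positive library passed the limit by less than 0.5 on the -log10 q scale, and in 513 a sort-negative library lay within 0.5 below it. The region just inside on the positive side was 0.6 kb into *Src*, a tyrosine kinase gene (chr2:157424598-157424996), with -log10 q of 2.44 in Tomato+ replicate 6, 2.16 in Tomato+ replicate 8 and 2.00085 in GFP+ replicate 4. Just outside was a region near *Mir3099* (chr7:6774161-6774316) with 3.36 and 2.72 in the GFP+ libraries and 1.99956 in Tomato+ replicate 6. On the negative side, the region just inside lay near *Gltpd2* (chr11:70520122-70520563), where GFP- replicate 1 reached 1.99952, and the one just outside in the *Slco4a1* locus (chr2:180473096-180473324), where GFP- replicate 2 reached 2.00089. In all, 2415 regions had a peak in at least 3 positive libraries and in exactly 1 sort-negative library.

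Most of the regions lay away from promoters. A promoter, taken as 1000 bp upstream to 100 bp downstream of a transcription start site (TSS), was overlapped by 95 regions (7.39%, 6.08-8.95), against 7.37% of the 14404 other regions found in 3 or 4 libraries, 49.5% of the 22070 regions open in all 7 libraries and 8.97% of all merged regions. By summit, 673 regions (52.3%) were intergenic, 520 (40.4%) intronic and 93 (7.23%) exonic. The median distance from the nearest TSS was 25090 bp, and 939 regions (73.02%) were more than 10 kb away. The median width was 333 bp, against 322 bp for the other regions in 3 or 4 libraries, and the median GC content of the summit window was 51.9% against 52.4%. In their position and base composition the regions thus lay close to other regions shared by as many libraries. The 181 regions of all 4 positive libraries had a promoter share of 12.2% (8.17-17.7).

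Repeated sequence was less common than in comparable regions. A summit was called repeated when the 31-mers within 50 bp of it had a median of at least 2 copies in the genome. This held for 223 regions (17.3%, 15.4-19.5), against 29.8% (29.1-30.6) of the other regions in 3 or 4 libraries and 27.0% (22.5-32.1) of those of the 3 sort-negative libraries only. Among all merged regions the share was lower (15.8-16.2). Within the regions the share was 11.1% (8.64-14.1) without a peak in Tomato+ replicate 8 and 21.5% (18.8-24.6) with one. At repeated summits reads can be placed at more than 1 copy, so the position of such a region is uncertain.

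Motifs were not used by the rule. GATA, MEIS and TEAD matches were among those more frequent in the regions than in each of the groups compared. Within 200 bp of the summit, 31.4% of the regions (28.9-34.0) held a GATA match, against 22.3% (21.7-23.0) of the other regions in 3 or 4 libraries, 24.5% (20.2-29.5) of the regions of the sort-negative libraries only and 23.9% of all merged regions. MEIS matches were found in 34.1% (31.5-36.7) against 24.95%, 26.7% (22.2-31.8) and 27.7%. For GATA and MEIS the interval overlapped that of the sort-negative regions. TEAD matches were found in 26.8% (24.5-29.3) against 19.99%, 19.6% and 20.8%. HOX-PBX matches were found in 16.9% (14.9-19.02) against 13.5%, 16.8% and 12.7%, so the sort-negative regions held them as often. SOX matches (ACAAAG or ACAATG) ran the other way, with 33.8% (31.3-36.5) in the regions against 45.7% (40.3-51.1) in those of the sort-negative libraries only. The motifs not described further (E-box, AP-1, RUNX, POU, ETS and SP/KLF) were found in 2.26% to 34.7% of the regions. The E-box was the most frequent of them, at 34.7% (32.1-37.3) against 30.5% (29.8-31.3) of the other regions in 3 or 4 libraries. T-box (AGGTGT) and MEF2 matches were found in 18.7% and 4.35% of the regions against 18.2% and 4.29% of the other regions in 3 or 4 libraries.

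The higher motif shares were those of the block without Tomato+ replicate 8. Its 515 regions held a GATA match in 41.9% (37.8-46.2), a MEIS match in 39.6% (35.5-43.9), a TEAD match in 31.1% (27.2-35.2) and a HOX-PBX match in 23.3% (19.9-27.1). NKX2-5 (CACTTNA), FOX (TGTTTAC or TATTTAC) and ISL1 (CTAATG or TTAATG) matches were found in 22.9% (19.5-26.7), 12.8% (10.2-15.98) and 28.9% (25.2-33.0). The 771 regions with a peak in Tomato+ replicate 8 gave 24.4% (21.5-27.5) for GATA, 30.4% (27.2-33.7) for MEIS, 24.0% (21.1-27.1) for TEAD, 12.6% (10.4-15.1) for HOX-PBX, 14.9% (12.6-17.6) for NKX2-5, 8.43% (6.67-10.6) for FOX and 21.3% (18.5-24.3) for ISL1. The intervals for GATA, HOX-PBX, NKX2-5, FOX and ISL1 included the shares of the other regions in 3 or 4 libraries, which were 22.3%, 13.5%, 14.5%, 7.13% and 19.9%. Those for MEIS and TEAD lay above them. CTCF, a factor at chromatin loop ends, had matches in 2.91% (1.77-4.75) of the block without Tomato+ replicate 8 and 6.74% (5.18-8.74) of the rest.

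The order of the blocks was the same with promoters, repeats and base composition held within limits. Outside promoters, in single-copy sequence and at 45 to 55% GC, a GATA match was found in 48.9% (43.2-54.7) of 284 regions of the block, 28.9% (24.2-34.1) of 315 regions with Tomato+ replicate 8, 27.4% (26.2-28.7) of 4731 other regions in 3 or 4 libraries and 31.6% (23.8-40.6) of 114 sort-negative regions. MEIS matches were found in 44.4% (38.7-50.2), 38.4% (33.2-43.9), 31.1% (29.8-32.4) and 36.0% (27.7-45.1) of the same groups. TEAD matches were found in 36.3% (30.9-42.0), 26.3% (21.8-31.5), 25.1% (23.9-26.4) and 24.6% (17.6-33.2).

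Over the 35 combinations of 3 libraries, the GATA share of this selected block was the highest. The other 34 ranged from 16.6% to 30.2%, and the 30.2% (24.2-37.04) was that of GFP+ replicate 4 with both Tomato+ libraries, so a set with Tomato+ replicate 8 came next. Over the 21 pairs, which hold regions outside the selection, the highest GATA shares were those of GFP+ replicate 3 with Tomato+ replicate 6 (32.9%, 30.3-35.6, 1183 regions), GFP+ replicate 4 with Tomato+ replicate 6 (29.4%, 26.9-32.0, 1194 regions) and GFP+ replicates 3 and 4 (28.97%, 26.4-31.7, 1122 regions). Both GFP- replicates followed with 28.4% (25.9-30.97), whose interval overlapped the last of these. Pairs of Tomato+ replicate 8 with a positive library had 21.4% (GFP+ replicate 3), 20.3% (GFP+ replicate 4) and 21.5% (Tomato+ replicate 6). A match is a description of the sequence and not a bound site.

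**Figure D3:**
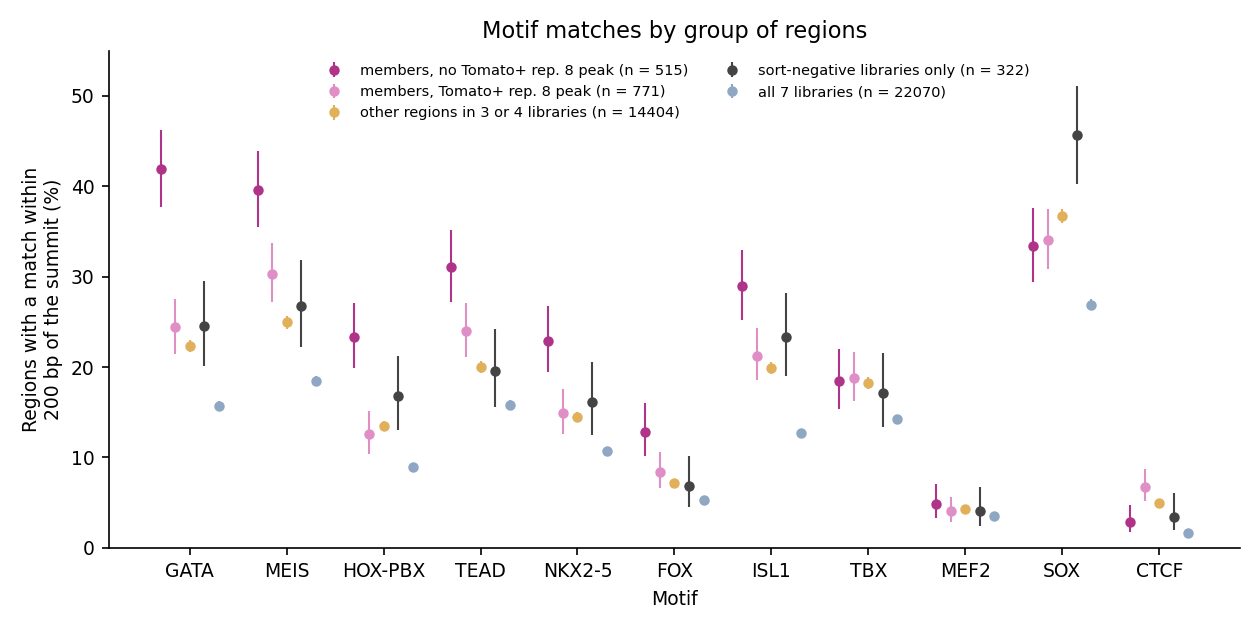
Percentage of regions with a motif match within 200 bp of the summit (y axis, bars show 95% Wilson intervals) for 11 motifs (x axis) in 5 groups of regions. For GATA the block without Tomato+ replicate 8 stands at 41.9% and the other 4 groups at 15.7% to 24.5%, and for SOX the regions of the sort-negative libraries stand highest at 45.7%.

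Genes near the regions were read from 8 lists of genes, with a region assigned to the gene of its nearest TSS within 150 kb. In all 1152 regions had such a gene, and 39 of them a listed one. Factors of the heart field, a list of 42 genes, took 15 regions at 10 genes (1.17%, 0.708-1.92), against 0.272% (0.250-0.296) of all merged regions, 0.382% (0.293-0.497) of the other regions in 3 or 4 libraries and none of the 322 regions of the sort-negative libraries only. Of these 15, 8 were without and 7 with a peak in Tomato+ replicate 8 (1.55% and 0.908% of each block). Only 1 was among the 181 regions of all 4 positive libraries. The share was 0.388% (0.107-1.40) at a -log10 q of at least 4 and 0.538% (0.183-1.57) with the 30000 peaks of smallest p. Both intervals include the 0.382%, which was taken at the main limit of 2. The share of other regions was not computed at these settings. The counts are small, and nearest genes need not be the genes an element acts on.

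*Isl1*, a LIM factor that marks SHF progenitors, had a region 133.7 kb upstream (chr13:116443214-116443533) whose window is printed above. Its fold enrichment was 5.421 in GFP+ replicate 3, 4.003 in GFP+ replicate 4 and 4.272 in Tomato+ replicate 6, with no deposited peak in Tomato+ replicate 8 and 1 weaker peak of 2.71 in GFP- replicate 2. *Tbx5*, a T-box factor of the posterior SHF and atria, had a region 138.6 kb downstream (chr5:119972911-119973540), with 3.97 and 3.16 in the GFP+ libraries, 8.002 in Tomato+ replicate 6 and weaker peaks of 2.78 in Tomato+ replicate 8 and 2.48 in Tomato- replicate 7. At both genes the 3 libraries with a peak past the limit lay above all the others, an order that the selection favoured. *Nr2f2*, an orphan nuclear receptor needed for atrial identity, had a region 130.1 kb upstream (chr7:70496509-70497152) with 4.52 and 3.25 in the GFP+ libraries, 4.27 in Tomato+ replicate 6, a weaker peak of 2.55 in Tomato+ replicate 8 and none in the sort-negative libraries.

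*Tead1* took 4 of the 15 regions, the most of any gene on a list. The one 23.1 kb upstream, whose window holds a TEAD match beside a GATA match, had a fold enrichment of 4.22 and 3.75 in the GFP+ libraries, 5.48 in Tomato+ replicate 6, no peak in Tomato+ replicate 8 or Tomato- replicate 7, and 3.02 and 2.71 in the GFP- libraries. The others lay at -16038 bp from the TSS and, in intron 1, 1.7 kb and 62.6 kb downstream. Those at -16038 bp and 62.6 kb had a peak past the limit in Tomato+ replicate 8 and lacked one in GFP+ replicate 4. *Eya1*, a transcriptional coactivator of the anterior heart field, took 2 regions. The *Eya1* region in intron 6 lay in sequence with 8 copies, and the region 44.2 kb upstream had 3.61 and 3.25 in the GFP+ libraries, 4.93 in Tomato+ replicate 6, 3.11 (below the limit) in Tomato+ replicate 8 and no sort-negative peak.

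*Tbx1*, the T-box factor of the anterior SHF, took 2 regions. One (chr16:18555277-18555553) lay in intron 7 of the neighbouring gene *Gnb1l*, with a fold enrichment of 3.53 and 4.29 in the GFP+ libraries and 3.81 in Tomato+ replicate 6, and 2.71 below the limit in Tomato+ replicate 8. The other lay in a *Tbx1* coding exon, with 4.29 in GFP+ replicate 4, 2.91 and 3.25 in Tomato+ replicates 6 and 8 and 2.05, below the limit, in GFP+ replicate 3. *Tcf21*, a factor of the proepicardium and pharyngeal mesoderm, had a region 6.6 kb downstream with 3.52, 3.47 and 3.81 in GFP+ replicates 3 and 4 and Tomato+ replicate 6. *Hand1*, a bHLH factor of the heart tube, and *Gata5*, a GATA factor, each had 1 region, with a highest fold enrichment of 3.48 in Tomato+ replicate 8 and of 3.35 in GFP+ replicate 3.

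Signalling genes, a list of 47, took 7 regions (0.544%, 0.264-1.12), against 0.447% of all merged regions, 0.486% of the other regions in 3 or 4 libraries and 1.24% (0.484-3.15) of the regions of the sort-negative libraries only. The first 2 shares lay within its interval, and the last was higher with an overlapping interval. The highest values were at *Plxna2*, a semaphorin receptor, whose region 9.1 kb upstream (chr1:194610519-194610970) had a fold enrichment of 5.36 and 3.36 in the GFP+ libraries, 8.06 in Tomato+ replicate 6, no peak in Tomato+ replicate 8 and 2.52 and 2.44 in the GFP- libraries. A second *Plxna2* region at 0.9 kb upstream had its peaks in both GFP+ libraries and Tomato+ replicate 8 instead. The hedgehog genes *Gli2*, *Gli3* and *Ptch1*, the receptor gene *Fgfr2* and the retinoic acid hydroxylase gene *Cyp26c1* had 1 each.

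*Hox* and TALE genes, a list of 48, took 4 regions (0.311%, 0.121-0.797). All merged regions had 0.171% and the other regions in 3 or 4 libraries 0.264%, both within this interval. *Hoxb1*, whose expression defines the GFP sort, had 2. The one 31.5 kb downstream (chr11:96397110-96397723) had a fold enrichment of 3.30 and 3.95 in the GFP+ libraries and 4.25 in Tomato+ replicate 6, and no deposited peak in Tomato+ replicate 8 or any sort-negative library. The other lay in intron 1 of *Hoxb1* (chr11:96366616-96367066), with 3.54 in GFP+ replicate 3, 3.72 and 3.24 in Tomato+ replicates 6 and 8, and 2.51, below the limit, in GFP+ replicate 4. *Meis2*, a TALE cofactor gene, had a region in intron 7 with 3.66 and 4.72 in the GFP+ libraries, 3.14 in Tomato+ replicate 6 and weaker peaks in all 3 sort-negative libraries. *Hoxc11* had a region in intron 1 with values between 3.28 and 3.45 in the 3 libraries past the limit.

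Genes of the heart muscle, a list of 30, took 5 regions (0.389%, 0.166-0.907), against 0.124% of all merged regions and 0.160% of the other regions in 3 or 4 libraries. The *Actc1* promoter, of cardiac alpha actin, was the only one in all 4 positive libraries, with a fold enrichment of 3.47 and 4.67 in the GFP+ libraries and 5.70 and 3.85 in Tomato+ replicates 6 and 8, and weaker peaks of 2.74, 2.99 and 2.81 in the sort-negative libraries. At *Nppa*, the natriuretic peptide of early chamber myocardium, the region 0.4 kb upstream (chr4:148000266-148000441) had 3.15 and 3.47 in the GFP+ libraries, 3.75 in Tomato+ replicate 6, and no deposited peak in any of the other 4. Its window holds a MEIS match on each strand. *Tnni1*, slow troponin I, had a region in intron 2 with 3.59, 3.20 and 5.95 in GFP+ replicates 3 and 4 and Tomato+ replicate 6, and *Tnnt2*, cardiac troponin T, one in intron 13 with 3.04, 3.23 and 3.81. The *Myl2* region lay in intron 8 of *Ccdc63*. *Tbx5*, *Nppa*, *Tnnt2*, *Gata5*, *Meis2*, 1 *Tbx1* region, 1 *Tead1* region, *Cyp26c1*, *Ptch1* and the neural genes and *Tek* below fell outside the 25 listed regions that the naming rule takes, and were named after their values had been seen.

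**Figure D4:**
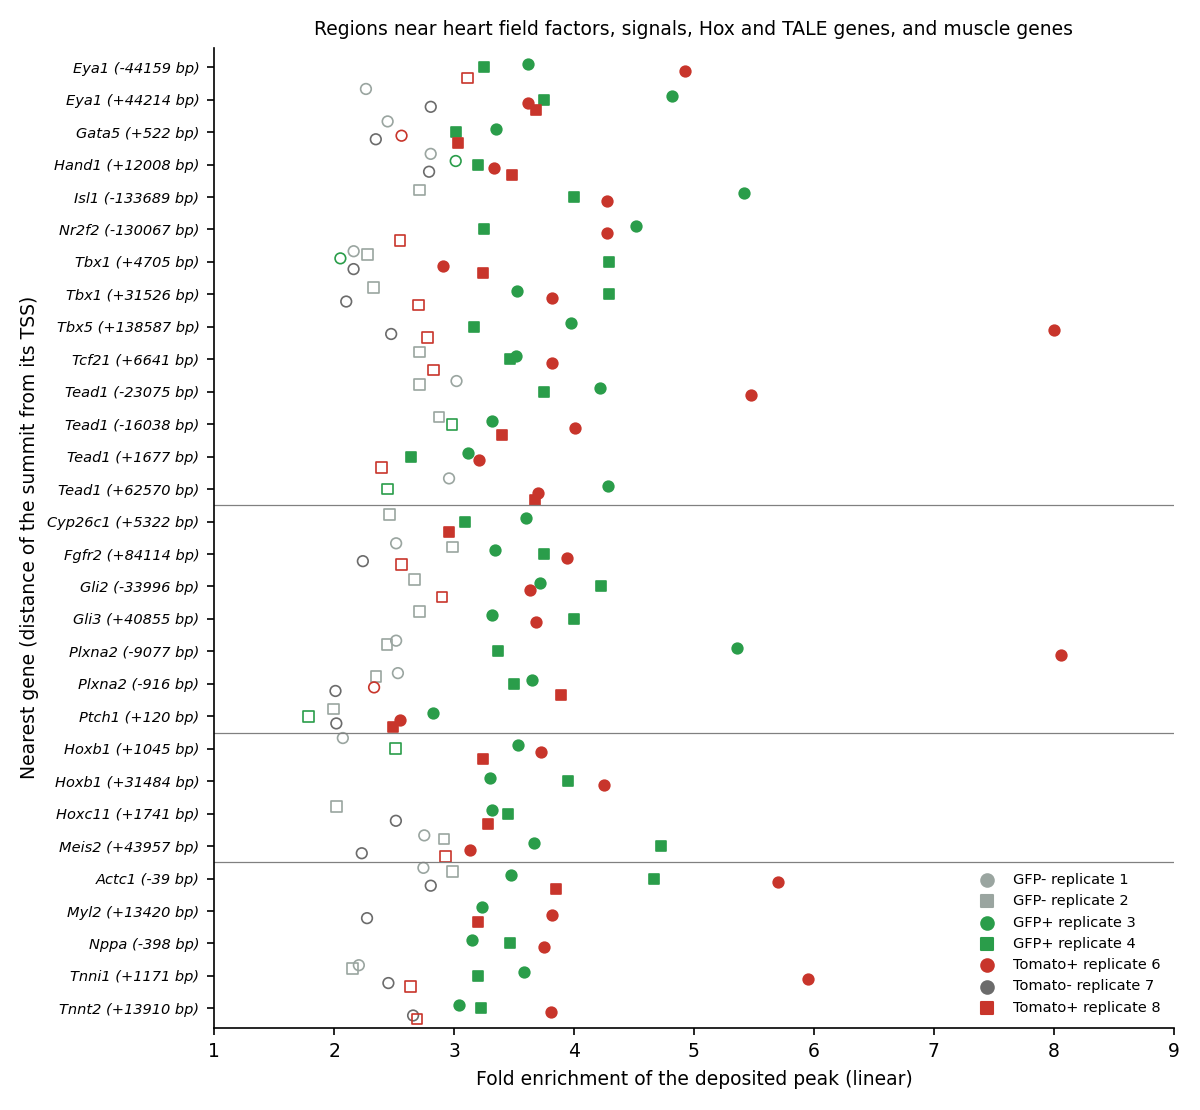
Fold enrichment (x axis, linear) of the deposited peak in each library at 30 regions nearest to heart field factors, signalling genes, *Hox* and TALE genes and heart muscle genes, in that order from the top and separated by lines. Filled symbols passed the q limit, open ones did not, and no symbol means no deposited peak. The sort-negative libraries have open symbols only, up to 3.02, and Tomato+ replicate 6 reaches the highest values, 8.06 at *Plxna2* and 8.002 at *Tbx5*.

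Lists of other cell types were read in the same way. The rule had dropped every region with a sort-negative peak past the limit. These counts therefore cannot measure what else the sorts held. Neural and neural crest genes, a list of which 41 are on these chromosomes, took 4 regions (0.311%, 0.121-0.797), at *Cntn2*, *Dbx1*, *Olig2* and *Pax6*. The share was 0.308% of all merged regions and 0.458% of the other regions in 3 or 4 libraries. It was 1.55% (0.665-3.58) of the regions of the sort-negative libraries only. Endothelial and blood genes took 2 (0.156% against 0.164% of all merged regions, as for the next lists), at *Erg* and *Tek*. Both had peaks in all 4 positive libraries, but the *Erg* region lay in sequence with 769 copies. Endoderm genes took 1 (0.0778% against 0.130%), at -44969 bp from the *Foxa2* TSS, with 4.819, 4.003 and 5.915 in GFP+ replicates 3 and 4 and Tomato+ replicate 6 and no other deposited peak. Genes of the paraxial and head mesoderm took 1, at *Dll3* (0.0778% against 0.1503%). The part of other cells in the positive sorts was not tested.

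The clearest presence and absence was found at regions that had a peak in all 4 positive libraries and no deposited peak in any sort-negative one. These were 27 of the 1286, and 16 of them lay in single-copy sequence. The 10 with the highest lowest fold enrichment were led by a region 22.1 kb upstream of *Psmb2*, a proteasome subunit gene (chr4:126655494-126655800), with 3.915 and 4.003 in the GFP+ libraries and 6.67 and 5.10 in Tomato+ replicates 6 and 8. A region 317 kb from *Gm36406* had 4.22, 3.75, 4.27 and 3.96 in the same order, and one 14.1 kb upstream of *A230108P19Rik* had 3.614, 4.919, 4.707 and 3.998. The region 31.5 kb from the cell cycle kinase gene *Cdk1* had 5.42, 4.50, 3.50 and 3.68. The others lay near *Pik3c2g*, *Tril* (in a 3' UTR exon of *Creb5*), *Cxcl13*, *1700007L15Rik*, *Gm27162* and *Gm525*, with a lowest fold enrichment between 3.23 and 3.40. None of the 10 was nearest to a listed gene.

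Few genes had several regions. The 1152 regions with a gene within 150 kb were spread over 1081 genes, of which 1019 had 1 region and 7 had at least 3. *Rgs3*, a regulator of G protein signalling, and *Tead1* had 4 each, and *Eln*, *Nfatc2*, *Rbpms*, *Kctd15* and *Tril* had 3 each. *Eln* encodes elastin of the arterial wall and had the strongest peaks of these. Its region 32.1 kb upstream had a fold enrichment of 5.557 and 4.003 in the GFP+ libraries and 6.91 in Tomato+ replicate 6, and weaker peaks of 2.38 in Tomato+ replicate 8 and 2.84 in GFP- replicate 2. The regions 41.1 kb and 1.1 kb upstream had 5.18, 3.14 and 6.04, and 4.56, 3.22 and 5.91, in the same 3 libraries. All 3 *Eln* regions lacked a peak past the limit in Tomato+ replicate 8. At *Rgs3* the strongest region, in intron 3, had 4.22, 4.87 and 5.88. The highest value at *Kctd15* was 3.71, the lowest such value among the 7 genes, and 2 of its 3 regions lay in repeated sequence.

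Between the positive sorts most regions showed no common order. At 726 regions all 4 positive libraries had a deposited peak. Both GFP+ libraries exceeded both Tomato+ libraries in fold enrichment at 72 of them (9.92%, 7.95-12.3), against 16.6% of the 38230 merged regions with a deposited peak in all 4. The reverse was found at 143 (19.7%, 17.0-22.7), against 19.7%. With pileups divided by the number of tags the shares were 5.23% and 23.8%, against 11.0% and 29.2% of the same merged regions. Part of this was fixed by the rule, since in the block without Tomato+ replicate 8 the order with both Tomato+ libraries on top was found at 0 of 215 regions, while both GFP+ libraries were on top at 35 (16.3%, 11.9-21.8). With Tomato+ replicate 8 they were on top at 37 of 511 (7.24%, 5.30-9.82) and the Tomato+ libraries at 143 (27.98%, 24.3-32.03). The rule limited this block too. Of its 511 regions, the library below the limit was GFP+ replicate 3 at 123, GFP+ replicate 4 at 99 and Tomato+ replicate 6 at 108. At the 181 regions past the limit in all 4 positive libraries, both GFP+ libraries were on top at 8.29% (5.09-13.2). Both Tomato+ libraries were on top at 21.5% (16.2-28.1) of these 181. With 2 libraries against 2 an exact two-sided permutation test of a single region cannot go below p = 0.333, and none was run.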

How the data were processed

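ATAC-seq was measured in 7 libraries of cells sorted from the SHF region at E9.5. Read pairs were mapped by the authors to GRCm38 with the SNAP aligner. They removed duplicates, improper pairs and blacklisted regions, and called peaks in each library separately with MACS2, version 2.1.1 per the submitters' processing notes. A header is present in 1 list, Tomato+ replicate 6. It names an earlier release of the caller, a p limit of 0.01, no control library and tags shifted by 37 bp and extended to 73 bp. The authors deposited for each peak the pileup (a coverage signal not scaled to depth), the fold enrichment (a ratio to the local background) and -log10 p and -log10 q values. At a given fold enrichment -log10 q grows with depth, so deeper libraries can call weaker peaks.

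Peaks past the q limit were merged by 1 bp and each region was read at the summit of its strongest peak. Pileups were also divided by the number of tags. TSSs came from 43783 curated RefSeq transcripts of GRCm38.p6, the build of the files, and 18 motifs (MEF2 by its consensus with 4 free letters) were searched on both strands within 200 bp of the summit. Motifs not spelled out in the results were CAGCTG or CATATG (E-box), TGANTCA (AP-1), TGTGGTT (RUNX), ATGCAAAT or ATGCTAAT (POU), CCGGAAG (ETS), GGGCGG (SP/KLF) and the CTCF consensus. The result for 1 motif and 1 listed region are not reported here. Shares carry 95% Wilson intervals. The regions, the 8 gene lists and the motifs were chosen with earlier results of these data known. Regions named in the text were the 10 with the highest lowest fold enrichment among those in all 4 positive libraries with no deposited sort-negative peak and a single-copy summit, the first 25 near listed genes by lowest fold enrichment over the positive libraries with a peak past the limit, genes with at least 3 regions, and the regions at the limit. The merging of peaks, the choice of regions and the count of genome copies were tested on simulated data. Shares and the motif search were not. The alternatives were other q limits (1.3 and 4), lists cut to 30000 peaks by p, a 50% overlap, summit windows, stricter presence or absence, leaving out each library, a promoter window of 500 bp, motif windows of 100 bp, regions outside promoters, single-copy sequence and pileup divided by tags. The split by Tomato+ replicate 8, the GC stratum and the counts of combinations under other limits were chosen after the data had been seen. The software was numpy 2.4.6, scipy 1.17.1, pandas 2.3.3, matplotlib 3.10.9 and numba 0.67.0 under Python 3.11.15.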

Additional observations from a re-analysis of the deposited data

How the results depend on the processing

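The number of regions was 1265 with an overlap of 50% and 1505 with summit windows, and moved further with the limits of the rule. It was 2382 at a -log10 q of at least 1.3, 515 at 4, 558 with the 30000 peaks of smallest p, 275 with no deposited peak in a sort-negative library and 181 with a peak in all 4 positive libraries. Leaving out 1 library gave 363 to 2522 regions, with 369 without GFP+ replicate 3, 363 without GFP+ replicate 4, 394 without Tomato+ replicate 6, 696 without Tomato+ replicate 8 and 2522 without Tomato- replicate 7, because all 3 remaining positive libraries must then have a peak, or only 2 sort-negative libraries must lack one. In the 5 settings that changed the limits the promoter share was 5.04%, 14.0%, 17.9%, 1.82% and 12.2%, and it was 11.2% with summit windows. The share in repeated sequence was 13.7%, 22.7%, 25.4% and 26.2% in the first 4. Without 1 library these shares were 7.57% to 10.03% and 12.9% to 22.6%.

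The GATA share was 28.5% at a -log10 q of at least 4, 24.6% with the 30000 peaks, 27.6% with summit windows, 41.5% with no deposited sort-negative peak, 25.4% in all 4 positive libraries, 38.4% in the GC stratum and 15.7% within 100 bp of the summit. It was 41.9% without and 24.4% with a peak in Tomato+ replicate 8. When 1 library was left out it was 23.1% to 37.9%, lowest without Tomato+ replicate 6 and highest without Tomato+ replicate 8. Without Tomato+ replicate 6, and without GFP+ replicate 4 (24.0%), the GATA share lay near the 23.9% of all merged regions of the 7 libraries. In the block without Tomato+ replicate 8 it was 39.3% (36.1-42.6) at a limit of 1.3, 39.3% (33.0-46.1) at 4 and 34.7% (28.7-41.2) with the 30000 peaks, against 24.9%, 21.1% and 17.9% in the rest, so the order of the blocks was the same in these settings. The share near heart field factors was 0.552% in all 4 positive libraries, 0.388% at a limit of 4 and 0.538% with the 30000 peaks, on 1 to 3 regions. With pileups divided by the number of tags, both GFP+ libraries were on top at 5.23% and both Tomato+ libraries at 23.8%. The cause of these changes was not tested. No paired analysis was possible because the replicate numbers are adapter numbers that no 2 libraries share. Read counts under the regions were not used here, so a missing peak cannot be told apart from one just below the limit.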
